A study of Mus musculus with 3 samples.

Results

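The nuclear genes of the mitochondrial respiratory chain and ATP synthase were examined in NIH/3T3 cells, a mouse fibroblast line, at the end of an exposure to 5aza-dC and after withdrawal of the drug. A gene belonged to the set when its mouse symbol started with Nduf, Uqcr, Sdh or Atp5, or with Cox4, Cox5, Cox6, Cox7 or Cox8. The brightest probe stood for each gene. In all, 91 of the 19057 genes measured belonged to the set, and 73 of them were detected in at least 1 group, against 8981 of all genes. The detected members were 30 subunits of complex I, 2 of complex II, 6 of complex III, 9 of complex IV and 14 of ATP synthase, together with 11 assembly factors and 1 gene with a pseudogene name, Ndufs5-ps.

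The respiratory chain lies in the inner mitochondrial membrane. Complex I (NADH dehydrogenase, Nduf genes) and complex II (succinate dehydrogenase, Sdh genes) pass electrons to coenzyme Q, complex III (Uqcr genes) hands them to cytochrome c, and complex IV (cytochrome c oxidase, Cox genes) passes them to oxygen. Protons pumped on the way drive ATP synthase (Atp5 genes). Most subunits are encoded in the nucleus and imported, a few are encoded in mitochondrial DNA, and dedicated assembly factors put the parts together. Fibroblasts in culture run this chain at a basal level, and some complex IV subunits exist as a widely expressed form and a form typical of muscle or testis.

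Each of the 3 groups was 1 sample of total RNA on Illumina bead arrays. Mock cells went through a mock treatment. Cells of the 5aza-dC group were given the DNA methylation inhibitor 5aza-dC (decitabine), a nucleoside that DNA methyltransferases become trapped on once it sits in DNA, at 1 uM with daily renewal over 3 days. The recovery group had the same exposure and then 14 days without the drug, and all groups were grown in the same serum-containing medium. NIH/3T3 is a single immortal line, so the groups describe that line only. Each deposited column was taken as the mean of 2 arrays, an inference from a fit of the deposited detection p-values. The levels of these arrays were computed back from the deposited tables, and all standard errors and p-values rest on that inference. Levels and differences below are on the log2 scale after quantile normalization, errors are standard errors from limma with 2 arrays per group, and "rose" and "fell" are used only where limma with Benjamini-Hochberg adjustment over the 8981 detected genes gave an adjusted p below 0.05. Whether these arrays carried the design's duplicate experiments or 1 RNA measured again is not stated, so a p-value covers no more than the variation from array to array, and the small number of arrays limits the precision. Since RNA was taken from whole cultures, fewer cells that express a gene and less of its RNA per cell cannot be told apart.

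Within a group the paired arrays correlated over the detected genes with r between 0.995 and 0.998, and the SD of their log2 difference was largest for mock (0.218; 5aza-dC 0.144, recovery 0.165). Of the fibroblast markers, 11 of 12 were detected, including Col1a1, Vim and Thy1, and Postn was not. Their levels summed to 29414 and 29443 on the mock arrays, 24761 and 25122 under 5aza-dC, and 35185 and 35730 after recovery. No adipocyte (0 of 5), blood (0 of 4) or testis germ cell marker (0 of 5) was detected in any group.

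Methylation was not measured here, but the drug acts on CpG methylation, so the CpG content of the members' promoters is given first. RefSeq promoters (GRCm38.p6, 300 bases, most of them upstream of the gene start) were matched to 76 members by symbol and gave 81 sequences. Their median was 20 CpG dinucleotides in 300 bases, against 7 over all promoters and 21 over the promoters of all detected genes. The sequences that follow are those of the member with the largest rise in 5aza-dC (Cox7a1, the muscle and heart form of complex IV subunit 7a), of its widely expressed counterpart (Cox7a2) and of the assembly factors that fell most (Ndufaf2, Ndufaf4 and Sdhaf1). They are written 5′ to 3′ on the strand of the gene, with CpG dinucleotides in capitals.
Cox7a1, chr7:30183921-30184220, plus strand: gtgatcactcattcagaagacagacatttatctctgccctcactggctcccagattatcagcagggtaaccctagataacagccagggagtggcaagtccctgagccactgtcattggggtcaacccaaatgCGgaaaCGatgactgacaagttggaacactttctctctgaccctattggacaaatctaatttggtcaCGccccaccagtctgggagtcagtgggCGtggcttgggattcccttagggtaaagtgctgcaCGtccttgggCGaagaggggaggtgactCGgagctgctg
Cox7a2, chr9:79759804-79760103, minus strand: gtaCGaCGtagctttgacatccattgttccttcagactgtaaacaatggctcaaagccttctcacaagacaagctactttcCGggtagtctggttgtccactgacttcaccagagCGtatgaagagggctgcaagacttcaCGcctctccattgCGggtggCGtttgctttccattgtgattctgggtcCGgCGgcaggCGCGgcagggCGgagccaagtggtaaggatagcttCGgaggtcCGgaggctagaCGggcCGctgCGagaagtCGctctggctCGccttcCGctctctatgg
Ndufaf2, chr13:108158576-108158875, minus strand: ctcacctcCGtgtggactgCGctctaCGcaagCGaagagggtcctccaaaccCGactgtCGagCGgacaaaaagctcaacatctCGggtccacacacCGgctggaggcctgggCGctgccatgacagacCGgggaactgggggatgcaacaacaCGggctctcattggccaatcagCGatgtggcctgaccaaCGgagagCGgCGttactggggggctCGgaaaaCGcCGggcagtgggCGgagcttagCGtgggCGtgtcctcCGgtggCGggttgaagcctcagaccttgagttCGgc
Ndufaf4, chr4:24897833-24898132, plus strand: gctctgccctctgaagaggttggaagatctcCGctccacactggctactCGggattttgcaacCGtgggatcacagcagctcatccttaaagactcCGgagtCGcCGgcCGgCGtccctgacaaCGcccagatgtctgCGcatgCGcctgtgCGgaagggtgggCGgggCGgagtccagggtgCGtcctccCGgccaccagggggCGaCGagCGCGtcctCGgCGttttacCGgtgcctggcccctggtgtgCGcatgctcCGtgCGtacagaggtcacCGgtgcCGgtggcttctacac
Sdhaf1, chr7:30322326-30322625, minus strand: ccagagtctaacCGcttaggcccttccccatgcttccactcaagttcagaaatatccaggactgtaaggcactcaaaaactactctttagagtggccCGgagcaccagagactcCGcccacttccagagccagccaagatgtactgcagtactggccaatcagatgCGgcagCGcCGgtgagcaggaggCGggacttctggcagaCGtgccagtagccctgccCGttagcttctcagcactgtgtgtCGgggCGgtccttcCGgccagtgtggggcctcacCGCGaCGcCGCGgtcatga

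The Cox7a1 promoter held 7 CpG dinucleotides, the lowest count among the members after Cox8b with 2 and Cox7b with 5. The Cox7a2 promoter held 20, and those of Ndufaf2, Ndufaf4 and Sdhaf1 held 25, 28 and 17. The palindrome CGCATGCG, the centre of the element bound by the regulator NRF1, was found on either strand in 11 member promoters (Atp5g2, Atp5j, Atp5k, Atp5l, Cox6a1, Ndufa11, Ndufa8, Ndufaf4, Ndufaf5, Uqcr11 and Uqcrc1), or 13.6%, against 1.87% of all promoters and 4.07% of those of detected genes. With 1 base free (CGCANGCG, which includes the former) the shares were 40.7%, 8.21% and 17.2%. The YY1 word AAGATGGC was in 13.6% of member promoters, 2.75% of all and 4.60% of those of detected genes. For the ETS word CCGGAAG the shares were 25.9%, 8.86% and 18.2%, and for the GC box GGGCGG, which can overlap the other words, 49.4%, 35.7% and 63.7%. The NRF1 word was shortened from a longer core after its shares had been seen. A word match is a description of the sequence and not a bound site.

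**Figure D1:**
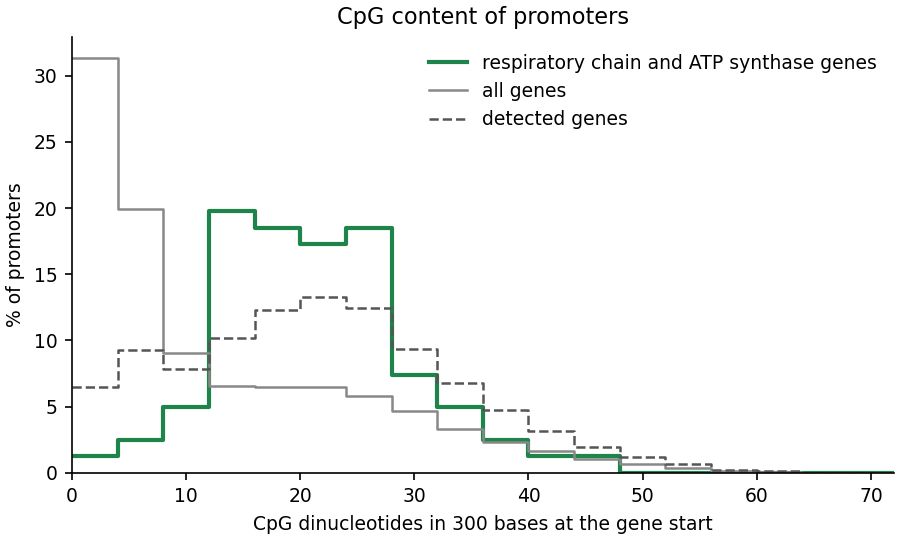
CpG dinucleotides in the 300 bases at the gene start (x axis) against the share of promoters in each bin of 4 (y axis, percent), for the 81 member promoters (thick line), all 32851 promoters (thin line) and the 9417 promoters of detected genes (dashed line). The member promoters have a median of 20, close to the 21 of detected genes and above the 7 of all promoters.

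Setting 5aza-dC against mock shows where the chain's transcripts stood at the end of the exposure. Most of them moved little. Of the 73 detected members 14 rose, against 30.1% of all detected genes, and 9 fell, against 27.1%, so that 19.2% and 12.3% of the members were called. The median difference was 0.05, against 0.01 over all detected genes. At least 1.5-fold changes that passed were 3 higher (Cox7a1, Ndufa7 and Ndufa11; background 15.1%) and 5 lower (Ndufaf4, Sdhaf1, Ndufaf2, Uqcrq and Atp5a1; background 11%). The small rises depended on how the arrays were scaled: with each array set to the median of the detected genes 5 members rose and 12 fell, and the 5 that remained called were Cox7a1, Ndufa7, Ndufa11, Ndufv3 and Atp5pb. With each array set to the median of all probes, which moved the median of all detected genes by -0.12, 1 member rose and 4 fell. Members that passed the detection filter through a single group had to differ from the others, which applies to Cox7a1 (5aza-dC) and Cox7a2 (mock), and among the related genes below to Ppargc1a (5aza-dC).

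**Figure D2:**
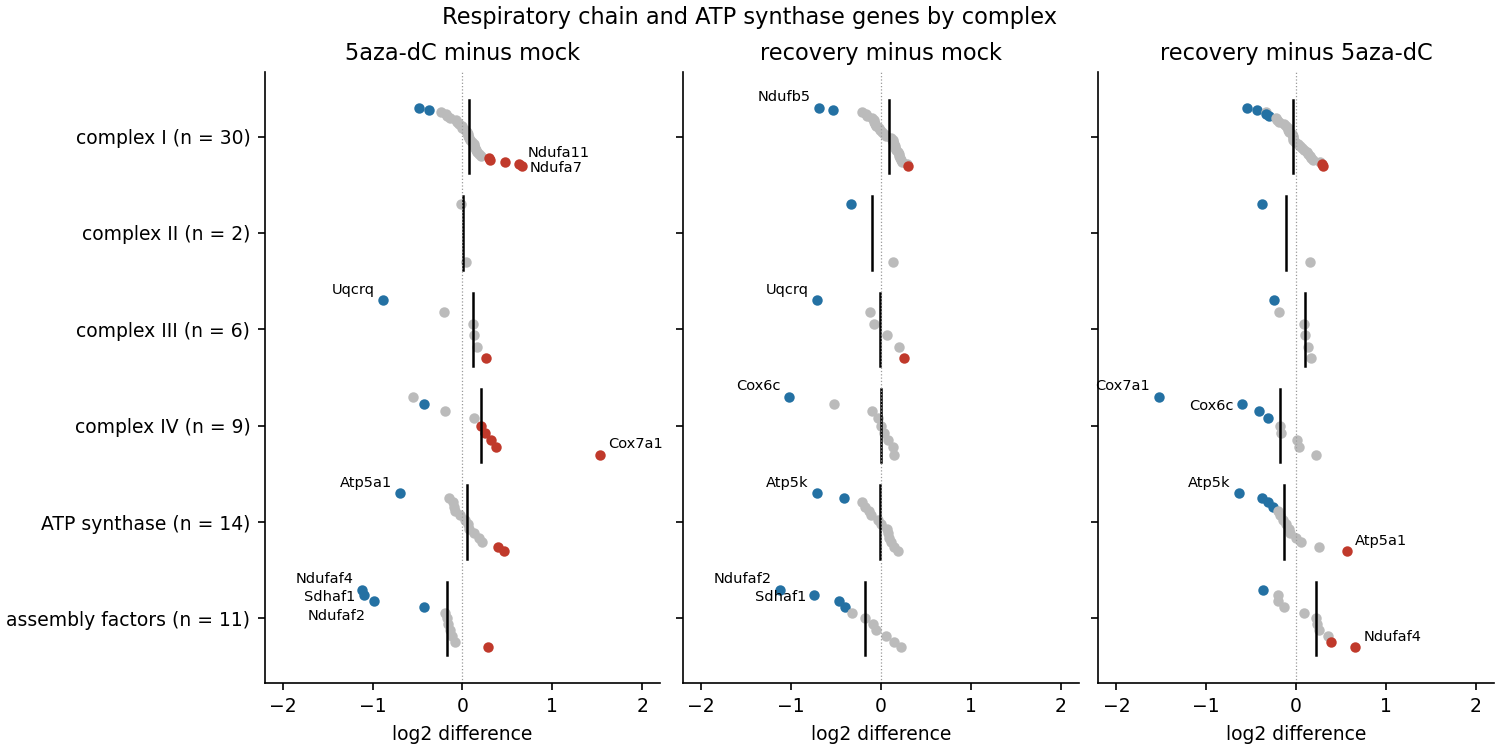
Log2 differences (x axis) of the 72 detected members with a place in a complex or as assembly factors (y axis), in the 3 comparisons. Each point is 1 gene, red where it rose, blue where it fell and grey where it did not pass, and black bars are medians. Most points lie within 0.5 of 0, Cox7a1 stands alone on the right in 5aza-dC minus mock at 1.53, and Ndufaf4, Sdhaf1 and Ndufaf2 lie near -1.

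Complex IV, the oxidase at the end of the chain, held the member that changed most. The Cox7a1 probe was not detected in mock (4.48 and 4.60 on the 2 arrays) or in recovery (4.40 and 4.69) and was at 6.09 and 6.06 in 5aza-dC. Both 5aza-dC arrays were therefore above all 4 others, which lay at background. The transcript rose by 1.53 ± 0.11 in 5aza-dC (limma adjusted p = 6.98e-05), which is at least 2.56-fold when mock is set to the detection limit. In recovery it was again below detection and fell by 1.53 ± 0.11 from 5aza-dC (adjusted p = 0.00012), at least 2.42-fold. Detection in 5aza-dC alone brought Cox7a1 into the test, so a rise and a later fall were built in. These p-values are therefore no independent support for them. Among the skeletal muscle markers, Ckm, Des, Myh1, Myh4, Myog and Tnnt3 were not detected in any group. The detected ones, Acta1 (-0.26 ± 0.10, adjusted p = 0.0517) and Mylpf (-0.07 ± 0.10), did not pass in 5aza-dC. Acta1 rose by 0.80 ± 0.10 from mock to recovery, and the summed level of the 8 markers was 216 to 218 on the mock arrays, 205 to 215 on the 5aza-dC arrays and 255 to 264 on the recovery arrays. The other tissue-restricted forms, Cox4i2, Cox6a2, Cox6b2, Cox7b2, Cox8b and Cox8c, were not detected in any group. Of the widely expressed counterparts, Cox7a2 was detected in mock only, with a difference of -0.55 ± 0.22 that did not pass (adjusted p = 0.0725), and Cox7b was not detected. The Cox7a2 mock arrays were at 4.80 and 5.50, the first near its detection limit of 4.77, and the other groups lay near the limits. Low signal describes these probes and not the genes. A switch between Cox7a2 and Cox7a1 cannot be read from them.

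Of the 8 detected widely expressed complex IV subunits, 4 rose slightly in 5aza-dC and 1, Cox6c, fell. Cox4i1, the largest nuclear-encoded subunit, was at 13.28 and 13.34 in mock, 13.66 and 13.71 in 5aza-dC and 13.29 and 13.26 in recovery. It rose by 0.37 ± 0.07 in 5aza-dC (adjusted p = 0.00455), was -0.04 ± 0.07 from mock in recovery, and fell by 0.41 ± 0.07 from 5aza-dC to recovery (adjusted p = 0.00478). Smaller rises in 5aza-dC were those of Cox5b (0.32 ± 0.10), Cox6a1 (0.25 ± 0.07) and Cox5a (0.21 ± 0.08). With Cox7a1, which passed the detection filter through 5aza-dC only, 5 of the 9 detected complex IV genes rose (55.6%) and 1 fell (11.1%). Over all detected genes 30.1% rose and 27.1% fell. The median of the complex was 0.21, which became 0.09 and 0.00 with the arrays set to the median of the detected genes and of all probes, and with these scalings Cox7a1 was the only complex IV gene that rose. Leaving out 1 array at a time ended the calls of Cox5b (adjusted p up to 0.156), Cox6a1 (up to 0.136) and Cox5a (up to 0.207), each without either 5aza-dC array among others. Cox6b1 (0.13 ± 0.11) and Ndufa4 (-0.19 ± 0.08), which despite its name is a complex IV subunit, did not pass.

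Cox6c, a small accessory subunit of complex IV, went the other way and stayed low. Its levels were 9.57 and 9.76 in mock, 9.20 and 9.28 in 5aza-dC, and 8.55 and 8.73 in recovery, so the groups followed each other without overlap. It fell by 0.43 ± 0.10 in 5aza-dC (adjusted p = 0.0101, and 0.0654 without the first 5aza-dC array), by 1.03 ± 0.10 from mock to recovery (adjusted p = 0.000839) and by 0.60 ± 0.10 from 5aza-dC to recovery (adjusted p = 0.00397). A single probe measured it.

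**Figure D3:**
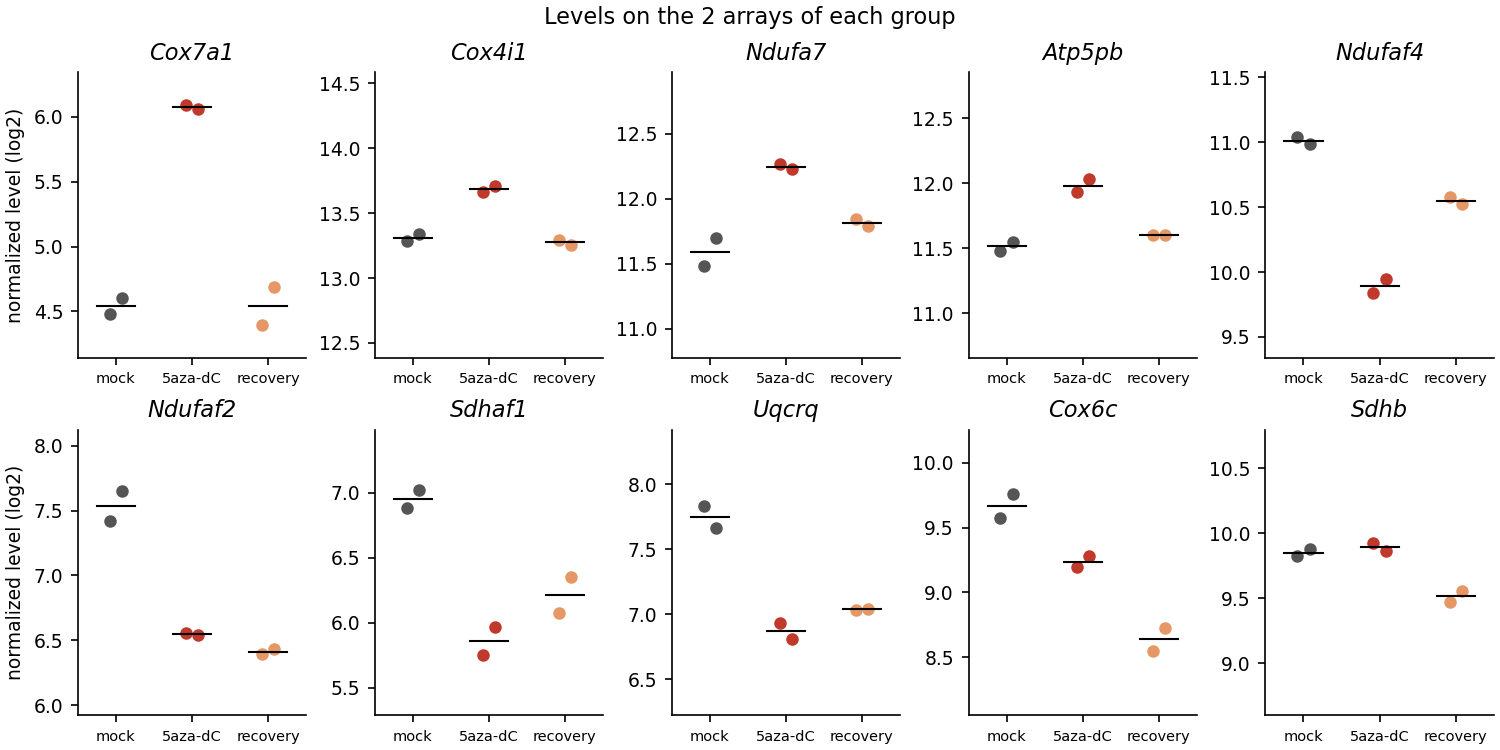
Normalized log2 levels (y axis, spanning 2.2 in every panel) on the 2 arrays of mock (grey), 5aza-dC (red) and recovery (orange) for 10 members. Points are arrays and bars are group means. Cox7a1 is high in 5aza-dC only, Ndufaf2 and Uqcrq are low in both drug groups, Ndufaf4 and Sdhaf1 lie between in recovery, and Cox6c and Sdhb are lowest in recovery.

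The assembly factors held the largest falls. Of the 11 detected, 4 fell and 1 rose in 5aza-dC, 36.4% and 9.09% against 27.1% and 30.1% of all detected genes, so the count of falls was not far from that over all genes. Their median was -0.17, and it was -0.23 and -0.32 under the scalings to the median of the detected genes and of all probes. Ndufaf4, which takes part in building the membrane arm of complex I, was at 11.04 and 10.98 in mock, 9.84 and 9.94 in 5aza-dC and 10.58 and 10.52 in recovery. The recovery arrays lay between those of the other groups. It fell by 1.12 ± 0.08 in 5aza-dC, 2.18-fold (adjusted p = 5.84e-05), and by 0.46 ± 0.08 from mock to recovery (adjusted p = 0.0049). From 5aza-dC to recovery it rose by 0.66 ± 0.08 (adjusted p = 0.000947). Its other probe gave -1.14, -0.45 and 0.69 for the same differences.

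Ndufaf2, a chaperone of a late step of complex I assembly, was at 7.42 and 7.65 in mock, 6.56 and 6.54 in 5aza-dC and 6.40 and 6.43 in recovery. It fell by 0.99 ± 0.09 in 5aza-dC (adjusted p = 0.00022) and by 1.12 ± 0.09 in recovery (2.18-fold, adjusted p = 0.000468), and recovery differed from 5aza-dC by -0.13 ± 0.09, which did not pass. Both drug groups were thus below mock and did not differ by limma. Sdhaf1, needed for iron-sulfur cluster insertion into complex II, was at 6.89 and 7.02 in mock, 5.75 and 5.97 in 5aza-dC and 6.07 and 6.35 in recovery. It fell by 1.10 ± 0.12 in 5aza-dC (adjusted p = 0.000465) and by 0.74 ± 0.12 in recovery (adjusted p = 0.0049), with 0.35 ± 0.12 between recovery and 5aza-dC (adjusted p = 0.0586).

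Among the other assembly factors, Sdhaf3 fell by 0.43 ± 0.09 in 5aza-dC and Sdhaf2, which attaches the flavin of complex II, fell by 0.40 ± 0.09 in recovery. In recovery Sdhaf3 was -0.18 from mock on its brightest probe and did not pass. The other detected Sdhaf3 probe, which was not tested, gave -0.80 in 5aza-dC and -0.68 in recovery. The Sdhaf3 call was lost without the first 5aza-dC array (adjusted p = 0.0527) and the Sdhaf2 call without the first (0.0715) or second (0.0521) recovery array. Sdhaf4 (-0.14 and -0.05 in 5aza-dC and recovery), Ndufaf1 (-0.12 and -0.32), Ndufaf5 (-0.17 and 0.05) and Ndufaf8 (-0.09 and 0.14) did not pass against mock. Ndufaf7, a methyltransferase that modifies a complex I subunit, did not pass against mock (-0.17 and 0.22) and rose by 0.39 ± 0.07 from 5aza-dC to recovery (adjusted p = 0.0066). Cox7a2l, which joins complexes into supercomplexes, was the member of this group that rose in 5aza-dC, by 0.28 ± 0.08 (adjusted p = 0.021, 0.124 with the arrays set to the median of the detected genes, and up to 0.11 without the second mock array or either 5aza-dC array), and it fell by 0.37 ± 0.08 from 5aza-dC to recovery (adjusted p = 0.0104, and up to 0.0737 without either 5aza-dC array or the first recovery array). Ndufaf3 and Ndufaf6 were not detected.

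Complex I, the entry point for electrons from NADH, was largely level. Of its 30 detected subunits 5 rose and 2 fell in 5aza-dC (16.7% and 6.67%, against 30.1% and 27.1% of all detected genes), with a median of 0.07. None of the 5 detected core subunits passed in 5aza-dC: their differences ran from -0.04 to 0.19, and the 95% interval of Ndufs3 was -0.27 to 0.19. The rises were in accessory subunits. Ndufa7 was at 11.48 and 11.70 in mock, 12.27 and 12.23 in 5aza-dC and 11.84 and 11.79 in recovery, with both 5aza-dC arrays above all others. It rose by 0.66 ± 0.09 (1.58-fold, adjusted p = 0.00114). Ndufa11, which sits in the membrane arm, was at 10.13 and 9.73 in mock, 10.63 and 10.50 in 5aza-dC and 10.24 and 10.21 in recovery. It rose by 0.63 ± 0.13 in 5aza-dC (1.55-fold, adjusted p = 0.00659), and recovery (0.29 ± 0.13) did not pass. Ndufv3, next to the flavin site, rose by 0.47 ± 0.09 in 5aza-dC (adjusted p = 0.00488) and fell by 0.54 ± 0.09 from there to recovery (adjusted p = 0.00414), and its 3 detected probes gave 0.41 to 0.47 in 5aza-dC. Ndufab1, the mitochondrial acyl carrier protein, and Ndufa6 rose by 0.30 ± 0.07 and 0.30 ± 0.10, calls that were lost without either 5aza-dC array for Ndufab1 (adjusted p up to 0.0663) and without either mock array or the first 5aza-dC array for Ndufa6 (up to 0.218). Among the accessory subunits that did not pass were Ndufa13 (0.12 ± 0.08) and Ndufb11 (-0.18 ± 0.21), the latter close to the detection limit.

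Ndufb5, a membrane arm subunit, fell by 0.48 ± 0.17 in 5aza-dC (adjusted p = 0.0455). Its mock arrays were at 5.99 and 5.97, the 5aza-dC arrays at 5.62 and 5.37 and the recovery arrays at 5.54 and 5.03, all near the detection limits of 4.60 to 4.81. The call was lost in every fit that left out a mock or 5aza-dC array (adjusted p = 0.0626 to 0.209). Ndufs4, an accessory subunit whose loss is a known cause of Leigh syndrome in humans and of a like disease in mice, fell by 0.37 ± 0.07 in 5aza-dC (adjusted p = 0.00503) and was -0.08 ± 0.07 from mock in recovery on its brightest probe. The other detected probes of the gene were not tested and gave larger differences, -0.73 to -0.99 under 5aza-dC and -0.88 to -1.22 after withdrawal. All 4 probes were lower than mock in 5aza-dC, and in recovery the brightest was near mock while the others stayed low.

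**Figure D4:**
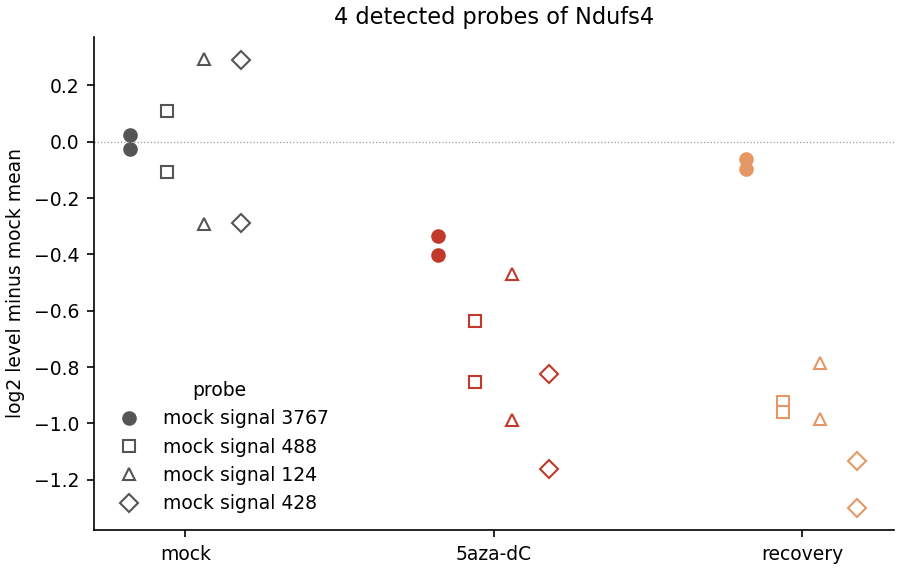
Log2 level minus the mock mean of the same probe (y axis) for the 4 detected Ndufs4 probes in the 3 groups. Points are arrays, the symbol marks the probe, and the legend gives its mean mock signal. The brightest probe (filled circles, signal 3767) returns to -0.08 in recovery and the other 3 probes lie between -0.88 and -1.22 on average.

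Complex II, which links the citric acid cycle to the chain, was detected through Sdhb, its iron-sulfur subunit, and Sdhc, a membrane anchor. Sdha and Sdhd were not detected, with detection p-values of 0.62 to 0.75 and 0.18 to 0.82. Since Sdha, the catalytic subunit, Ndufs1 and Uqcrfs1 are core parts of the chain, absence of signal describes these probes and not the genes. Sdhb was at 9.83 and 9.88 in mock, 9.92 and 9.86 in 5aza-dC and 9.47 and 9.56 in recovery, and only recovery stood apart. It fell by 0.34 ± 0.08 from mock to recovery (adjusted p = 0.0136, and 0.0876 without the first recovery array) and by 0.38 ± 0.08 from 5aza-dC to recovery (adjusted p = 0.00777, and up to 0.0606 without the first 5aza-dC or first recovery array), while 5aza-dC minus mock was 0.04 with a 95% interval of -0.14 to 0.22. A second detected probe gave -0.27 and -0.40. For Sdhc the differences were -0.02 (95% interval -0.22 to 0.18) in 5aza-dC and 0.14 (-0.06 to 0.34) in recovery.

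In complex III, 1 of 6 detected subunits rose and 1 fell in 5aza-dC (16.7% each, against 30.1% and 27.1% of all detected genes). Uqcrq, a small subunit near the quinone site, was at 7.84 and 7.67 in mock, 6.93 and 6.81 in 5aza-dC and 7.04 and 7.04 in recovery. Both drug groups lay below mock. It fell by 0.88 ± 0.09 in 5aza-dC (1.84-fold, adjusted p = 0.000277) and by 0.71 ± 0.09 in recovery (adjusted p = 0.00178), with 0.17 ± 0.09 between them. Uqcr10 rose by 0.26 ± 0.08 (adjusted p = 0.0241, but up to 0.119 without the first mock array or either 5aza-dC array). The core proteins Uqcrc1 (0.16 ± 0.08) and Uqcrc2 (0.11 ± 0.09), the hinge protein Uqcrh (-0.21 ± 0.09) and Uqcr11 (0.12 ± 0.07) did not pass. Uqcrfs1, the Rieske iron-sulfur protein, was not detected.

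Of the 14 detected ATP synthase genes 2 rose and 1 fell in 5aza-dC (14.3% and 7.14%, against 30.1% and 27.1% of all detected genes), with a median of 0.05. Atp5pb, subunit b of the peripheral stalk, was at 11.48 and 11.55 in mock, 11.93 and 12.03 in 5aza-dC and 11.60 and 11.60 in recovery. It rose by 0.47 ± 0.08 (1.38-fold, adjusted p = 0.00216) and fell by 0.38 ± 0.08 from 5aza-dC to recovery (adjusted p = 0.00805, and 0.0645 without the second 5aza-dC array). Its other detected probes gave 0.17 and 0.01 in 5aza-dC. In recovery minus mock they gave -0.53 and -0.18, against 0.09 on the brightest probe, and they were not tested. Atp5j2, subunit f of the membrane part, rose by 0.40 ± 0.10 (adjusted p = 0.0152, and 0.0963 without the first 5aza-dC array). Atp5a1, the alpha subunit of the catalytic head, was at 5.94 and 5.57 in mock, 5.11 and 5.01 in 5aza-dC and 5.71 and 5.53 in recovery, not far above the detection limit. It fell by 0.69 ± 0.13 in 5aza-dC (1.62-fold, adjusted p = 0.00453), and its other detected probe gave -0.50. The beta subunit Atp5b, which carries the catalytic site, differed by 0.18 ± 0.07 (adjusted p = 0.0571), and the gamma subunit Atp5c1 by 0.22 ± 0.08 (adjusted p = 0.0646). The c-ring genes Atp5g2 and Atp5g3 differed by -0.11 (95% interval -0.43 to 0.21) and 0.02 (-0.20 to 0.25), and Atp5d by 0.13 ± 0.08.

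Recovery was set against mock to see how the members stood 14 days after withdrawal. The labels give 1 mock sample and none kept for the 14 further days. After-effects of the drug and time in culture therefore cannot be told apart in comparisons with recovery. The chain as a whole was close to mock, with a median of 0.00 against 0.03 over all detected genes. Of the 73 members 2 rose, against 22% of all detected genes, and 11 fell, against 18.5%. Of these 11, 6 had also fallen in 5aza-dC, and the other 5 (Atp5h, Atp5k, Ndufb10, Sdhb and Sdhaf2) had not passed there. Both comparisons use the same mock arrays, so some overlap is built in. The overlap over all detected genes is not given here, and the 6 are no sign of an effect particular to the members. At least 1.5-fold changes that passed were 0 higher (background 7.16%) and 6 lower by the fitted difference (Ndufaf2, Cox6c, Sdhaf1, Uqcrq, Ndufb5 and Atp5k; background 6.41%), of which Atp5k was below detection in recovery and is bounded at 1.22-fold or more. With the arrays set to the median of the detected genes 0 rose and 10 fell, all 10 among the 11. With the median of all probes, which moved the median of all genes by -0.27, 0 rose and 2 fell.

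By role, 4 of the 11 assembly factors fell (Ndufaf2, Sdhaf1, Ndufaf4 and Sdhaf2, with the values given above), 2 of 30 complex I subunits, 1 of 2 of complex II, 1 of 6 of complex III, 1 of 9 of complex IV and 2 of 14 of ATP synthase. The shares in that order were 36.4%, 6.67%, 50%, 16.7%, 11.1% and 14.3%, against 18.5% of all detected genes. Atp5k, subunit e of the membrane part, was at 4.97 and 5.19 in mock and 4.85 and 5.16 in 5aza-dC, and was not detected in recovery (4.27 and 4.47). It fell by 0.71 ± 0.13 from mock (adjusted p = 0.00764), at least 1.22-fold with recovery set to the detection limit. Atp5k passed the detection filter through mock and 5aza-dC only, so the filter favoured a lower recovery level. This p-value is therefore no independent support for the fall of Atp5k. Atp5h, subunit d of the peripheral stalk, fell by 0.41 ± 0.08 (adjusted p = 0.00875). Ndufb10, a membrane arm subunit of complex I, fell by 0.53 ± 0.09 (adjusted p = 0.00416), and Ndufb5 by 0.69 ± 0.17 (adjusted p = 0.0178, and up to 0.0608 without either mock array or the second recovery array).

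The members that rose in recovery were Ndufs7, a core iron-sulfur subunit of complex I, by 0.30 ± 0.07 (adjusted p = 0.0141), and Uqcrc1 by 0.26 ± 0.08 (adjusted p = 0.0366). The Ndufs7 call was lost without the first (adjusted p = 0.0784) or second (0.0695) recovery array, and the Uqcrc1 call in every fit that left out an array other than the first mock array (up to 0.154). Neither passed with the arrays set to the median of the detected genes, and both differences were negative with the median of all probes (-0.06 and -0.09). The highest differences in the other groups of genes were those of Atp5d (0.18 ± 0.08), Ndufaf7 (0.22 ± 0.07) and Cox5b (0.15 ± 0.10), none of which passed.

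Recovery was also set directly against 5aza-dC, which shares its arrays with the comparisons above. Of the members 5 rose, against 21.6% of all detected genes, and 15 fell, against 21%. At least 1.5-fold changes that passed were 1 higher (Ndufaf4, background 5.6%) and 3 lower by the fitted difference (Cox7a1, Cox6c and Atp5k, background 9.98%), Atp5k again with a bound below 1.5-fold, given next. The median was -0.05 against 0.02 over all detected genes. The arrays set to the median of the detected genes gave 5 that rose and 10 that fell, and those set to the median of all probes gave 0 and 1, the median of all genes having moved by -0.17. Among the subunits, 4 of 30 fell in complex I, 1 of 2 in complex II, 1 of 6 in complex III, 4 of 9 in complex IV and 4 of 14 in ATP synthase. Atp5k, again tested without detection in recovery, fell by 0.63 ± 0.13 (adjusted p = 0.0103, no independent support), at least 1.16-fold with recovery set to the detection limit. This call was lost without the second 5aza-dC array (adjusted p = 0.0603) or the first recovery array (0.0587). Those that rose were Atp5a1 (0.56 ± 0.13), Ndufaf4, Ndufaf7, Ndufa5 (0.30 ± 0.09) and Ndufs4 (0.29 ± 0.07 on its brightest probe). Uqcr11 fell by 0.24 ± 0.07 and Ndufc1 by 0.34 ± 0.08. The calls of Ndufs4, Ndufa5 and Uqcr11 were lost without any 1 of the 5aza-dC and recovery arrays (adjusted p up to 0.12, 0.168 and 0.186), those of Atp5a1 and Ndufc1 without either 5aza-dC array or the first recovery array (up to 0.0851 and 0.0924), and with the mean of all its detected probes Ndufs4 was -0.07.

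Genes that serve the chain without belonging to the set were read from separate lists. Mitochondrial biogenesis regulators, the factors that transcribe and copy mitochondrial DNA or switch on nuclear genes of the chain, were lower in 5aza-dC. Of 18 detected 13 fell (72.2%, against 27.1% of all detected genes) and 1 rose, with a median of -0.34, and under the scalings to the median of the detected genes and of all probes 12 and 3 fell, with medians of -0.33 and -0.43. Pprc1, a coactivator of the PGC-1 family, was at 9.87 and 9.89 in mock, 8.64 and 8.67 in 5aza-dC and 9.59 and 9.50 in recovery. It fell by 1.23 ± 0.07 in 5aza-dC (adjusted p = 3.12e-05) and by 0.34 ± 0.07 in recovery (adjusted p = 0.0126, and 0.0824 without the second recovery array). Ppargc1b, its relative, fell by 0.96 ± 0.11 in 5aza-dC (adjusted p = 0.000557). It was not detected in recovery, at least 2.08-fold below mock (adjusted p = 0.000447). Ppargc1b entered the test through groups other than recovery, so the recovery p-value is no independent support. Tfb2m, a mitochondrial transcription factor, fell by 0.83 ± 0.09 in 5aza-dC (adjusted p = 0.000428). Tfam, which packages mitochondrial DNA, fell by 0.28 ± 0.07 in 5aza-dC (adjusted p = 0.0142, and up to 0.0868 without either 5aza-dC array) and by 0.54 ± 0.07 in recovery. The regulator that rose was Ppargc1a, the founding member of the PGC-1 family, which was detected in 5aza-dC only. A rise and a later fall of Ppargc1a were thus built in by the detection filter. Its levels were 4.27 and 4.22 in mock, 5.55 and 5.48 in 5aza-dC and 4.29 and 4.47 in recovery, so that 5aza-dC was at least 1.74-fold above mock (adjusted p = 5.91e-05) and recovery at least 1.65-fold below 5aza-dC (adjusted p = 0.000165). In recovery minus mock 7 of the 18 fell (38.9%, against 18.5% of all detected genes) and 0 rose (against 22%). From 5aza-dC to recovery 7 rose (38.9%, against 21.6%) and 3 fell (16.7%, against 21%).

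The mitochondrial ribosomal proteins, which make the subunits encoded in mitochondrial DNA, were measured by 76 genes with 72 detected. In 5aza-dC 24 fell and 9 rose, with a median of -0.16, and in recovery 18 fell and 5 rose, with a median of -0.04. The falls were 33.3% and 25% of the list, near the 27.1% and 18.5% of all detected genes. The rises were 12.5% and 6.94% of the list, below the 30.1% and 22% of all detected genes. Mrpl50 fell by 1.07 ± 0.11 and 0.58 ± 0.11 (adjusted p = 0.000291 and 0.00735), Mrpl20 by 0.87 ± 0.20 in 5aza-dC (adjusted p = 0.00837, and 0.0528 without the first 5aza-dC array) and Mrps18c by 0.90 ± 0.10 in recovery. Among complex IV assembly genes, 5 of 17 rose and 5 fell in 5aza-dC (29.4% each), and 2 rose and 5 fell in recovery (11.8% and 29.4%). Over all detected genes 30.1% rose and 27.1% fell in 5aza-dC, and 22% rose and 18.5% fell in recovery. The 5aza-dC shares were thus near those of all genes. Cox10, which makes the heme of the oxidase, fell by 0.87 ± 0.07 in 5aza-dC (adjusted p = 9.99e-05), Coa6 fell by 0.76 ± 0.12 in recovery (adjusted p = 0.00432), and Coa3 rose by 0.43 ± 0.08 and 0.71 ± 0.08 in 5aza-dC and recovery. Complex I assembly genes outside the Ndufaf names gave 3 falls and 1 rise among 7 in 5aza-dC (42.9% and 14.3%). The falls were led by Tmem186 (-0.97 ± 0.08, adjusted p = 0.000137) and Ecsit (-0.78 ± 0.08). In recovery the count was again 3 falls and 1 rise. Complex III assembly genes gave 2 falls (50%) and 0 rises among 4 in 5aza-dC, with Uqcc1 at -0.52 ± 0.07, and 1 fall and 1 rise in recovery (25% each). Of the 2 detected ATP synthase assembly genes Tmem70 fell by 0.78 ± 0.07 and Atpaf2 rose by 0.27 ± 0.09 in 5aza-dC, a call lost in all fits that left out an array other than the first mock array (adjusted p up to 0.185).

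Of 13 detected electron carrier and coenzyme Q genes 3 rose and 4 fell in 5aza-dC (23.1% and 30.8%), and 2 went each way in recovery (15.4%). The 5aza-dC shares were near the 30.1% and 27.1% of all detected genes. In recovery 22% of all detected genes rose and 18.5% fell. Coq9, needed for coenzyme Q synthesis, rose by 1.00 ± 0.11 (adjusted p = 0.000379) and stayed 0.58 ± 0.11 above mock in recovery, whereas Dhodh, which feeds electrons from pyrimidine synthesis, fell by 0.58 ± 0.07 in 5aza-dC. Cycs, the cytochrome c gene, fell by 0.31 ± 0.08 and 0.41 ± 0.08 in 5aza-dC and recovery, calls lost without either 5aza-dC array (adjusted p up to 0.0756) and without the first recovery array (0.0519). In the citric acid cycle 3 of 11 fell and 1 rose in each comparison with mock, among them Suclg1 (-0.38 ± 0.09 and -0.70 ± 0.09, the former with an adjusted p of 0.0558 without the second 5aza-dC array). The falls were 27.3% and the rises 9.09% of the citric acid cycle list in both of these comparisons. Of 5 detected carriers of adenine nucleotides, phosphate and small metabolites 2 fell (40%) and 0 rose in 5aza-dC, including Vdac2 (-0.45 ± 0.09). The genes encoded in mitochondrial DNA were not analysed here. Fibroblast markers moved in the same samples: 6 of 11 fell (54.5%) and 0 rose in 5aza-dC, and 4 rose (36.4%) and 1 fell (9.09%) in recovery. S100a4 was at -1.37 ± 0.12 in 5aza-dC and Pdgfrb at 0.86 ± 0.14 in recovery. The part of these markers in the results above was not tested.

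**Figure D5:**
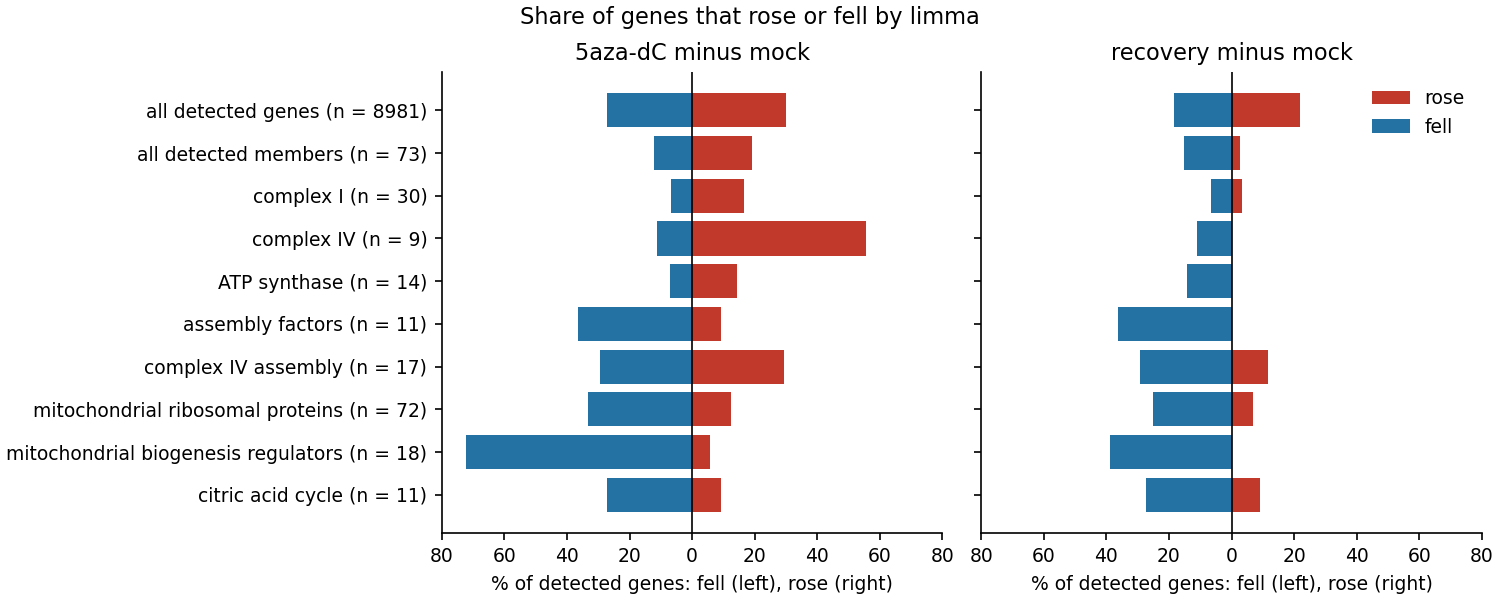
Share of detected genes that fell (blue, to the left) or rose (red, to the right) by limma, in percent, in 5aza-dC minus mock and recovery minus mock, for all detected genes, the members, 4 groups of members and 4 related lists. The members (19.2% higher, 12.3% lower in 5aza-dC) have shorter bars than all genes (30.1% and 27.1%), and 13 of 18 biogenesis regulators fell.

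Probes of the same gene were compared where more than 1 was detected, which was the case for 22 members. All detected probes of a gene had the same sign for 20 of them in 5aza-dC minus mock, 15 in recovery minus mock and 14 in recovery minus 5aza-dC. A probe cannot tell a gene from processed pseudogenes that share its sequence, which are known for many of these genes, and the probe annotated to Ndufs5-ps (0.30 ± 0.16 in both comparisons with mock, not passed) may read such copies. Of the reference's 100 protein-coding symbols that fit the set, 10 had no probe listed in the annotation used here, among them Cox7c, Cox8a and the c-ring gene Atp5g1, which were not analysed here.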

How the data were processed

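Total RNA was isolated with TRIZOL, and amplification and biotin labelling used TotalPrep, per the labels' protocols. The first deposited table holds non-normalized probe intensity and a detection p-value for 45281 probes, per the file headers. The second deposited table holds intensity that the authors background-subtracted and scaled, as read from its values. Software and genome build are not given in the sources used here, and 0 columns belonged to other samples.

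The 2 arrays behind each deposited column were solved from both tables through the detection p-values (936 negative controls, p from 0.05 to 0.97). The deposited p-values were fitted as a sum of 1 smooth function of each array. The residual SD of this fit was 9.81e-04 or less in every group with 2 arrays, and at least 0.0288 with 1. P-values recomputed from the solved arrays are not compared with the deposited ones here. The 6 arrays were corrected with normexp (offset 16), quantile normalized, put on the log2 scale and fitted with limma 3.58.1 in R 4.3.3 (residual degrees of freedom 3, prior 3.71). Genes with a detection p-value below 0.01 in at least 1 group were tested, with Benjamini-Hochberg adjustment at 0.05. Both steps were tested on simulated data. A bound sets the dimmer group at each array's detection limit.

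Gene symbols came from the platform annotation: 34885 probes had 1 symbol, 18 several and 10378 none listed. All 91 members matched the reference by symbol. Named members are those with a column difference of at least 1.5-fold, the extremes and the brightest and dimmest of each complex, complex II, isoform pairs and the c-ring genes, and up to 3 called genes of each related list. Others named (including Cox5a, Sdhaf2, Sdhaf3, Ndufab1, Ndufa6, Ndufb10, Atp5h and Ndufs4) were chosen after their values were seen. The members and lists were chosen with earlier results of these data known. Alternatives changed the background correction, scaling, detection filter, probe choice, table and arrays. Levels of different probes are not compared, since probes differ in binding.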

Additional observations from a re-analysis of the deposited data

Results flagged for a closer look

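In 4 members the difference between recovery and 5aza-dC, each of which was set against the same mock arrays, passed limma with a fitted size of at least 1.5-fold. Cox7a1 differed by -1.53 (recovery minus 5aza-dC) and was detected in 5aza-dC only, which bounds the fall at 2.42-fold or more. It entered the tests through that group alone, so a fall was built in. Ndufaf4 differed by 0.66 and Cox6c by -0.60. Atp5k differed by -0.63, but recovery was below detection and the bound is only 1.16-fold. It passed the detection filter through mock and 5aza-dC only, so the filter favoured a lower recovery level.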

How the results depend on the processing

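Counts of members moved with the scaling, the background correction and the arrays in the fit. With each array set to the median of all probes, 5aza-dC minus mock gave 1 rise, 4 falls and a median of -0.15, recovery minus mock gave 0 rises, 2 falls and a median of -0.31, and recovery minus 5aza-dC gave 0 rises, 1 fall and a median of -0.19. That scaling also turned Ndufs7 (-0.057) and Uqcrc1 (-0.089) in recovery minus mock. Set to the median of the detected genes, 5 members rose in 5aza-dC minus mock with a median of -0.056, 0 rose in recovery minus mock, and the median of recovery minus 5aza-dC was 0.016. An offset of 50 gave 6 rises in recovery minus mock and 12 in recovery minus 5aza-dC, no background correction gave 7 and 11, no detection filter gave 1 rise in recovery minus mock, and the mean of all detected probes gave 4 and turned Ndufs4 in recovery minus 5aza-dC (-0.072). In the authors' scaled table Ppargc1b was at the floor of 16 in both drug groups, a difference of 0. Leaving out 1 array in turn, risen and fallen members ranged from 6 to 15 and 6 to 15 in 5aza-dC minus mock, 0 to 8 and 9 to 13 in recovery minus mock, and 2 to 11 and 5 to 20 in recovery minus 5aza-dC, with medians of 0.04 to 0.05, -0.00 to 0.03 and -0.06 to -0.04. A lone array was then taken to vary like the other groups. The cause of these changes was not tested. The authors' scaled table and the deposited columns allow no test, and their medians moved by less than the spread between arrays. Dim probes near the detection limits of 4.60 to 4.81 set the limit of what could be measured. No paired analysis was possible because the labels give 1 sample per group and the solved arrays carry no numbers.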
